A study of Rattus norvegicus with 28 samples.

Results

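Genes of glucose uptake and glycolysis were followed in rat spinal cord and brain: Slc2a1, Hk2, Pfkfb3, Gapdh, Pkm, Ldha and Ldhb. They were chosen by gene identifier, 7 of the 30560 Ensembl identifiers in each table: ENSRNOG00000007284, ENSRNOG00000006116, ENSRNOG00000018911, ENSRNOG00000018630, ENSRNOG00000011329, ENSRNOG00000013009 and ENSRNOG00000013000, in the order of the names above. The study asks what a neuronal shortage of cytochrome c oxidase, the last enzyme of the respiratory chain, does in these tissues. Its rats are labelled mtCO3mut, after the mitochondrial gene for a subunit of that enzyme, or WT, and the design text names a NeuN-Cre line, NeuN being a neuronal protein. Per the labels, total RNA was depleted of ribosomal RNA and sequenced from bulk tissue, so fewer cells of a type and less RNA per cell cannot be told apart. The labels state no age, sex or strain. They do not tie a group's samples to different animals either: every p-value therefore reflects the spread among these libraries alone, part of which may be technical.

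Spinal cord and brain each had 4 libraries marked plus and 4 marked minus in the column names. Plus was taken to mean mtCO3mut and minus WT; no label says so, and each direction given for plus against minus would turn round if the marks had the opposite meaning, with the minus-marked tissue comparison then describing mtCO3mut rats. Total counts ran from 21008418 to 47597097 in spinal cord and from 33105800 to 82776333 in brain, with every plus-marked brain library deeper than every minus-marked one. Plus-marked spinal cord library 2 was the shallowest of all 16. The early-stage spinal cord samples, 6 of each genotype, were not analysed here because the 12 columns of their table carry no genotype. Markers of cell types could not be checked, since no name was paired with any other identifier.

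Glucose enters cells of the nervous system through transporters, is trapped as glucose 6-phosphate by hexokinase and is broken down to pyruvate by glycolysis. Pyruvate is either oxidised in mitochondria or turned into lactate. When respiration fails, cells can make ATP by sending more glucose to lactate, and many glycolytic genes are known targets of the hypoxia-inducible factors. Slc2a1 encodes GLUT1, the glucose transporter of the blood-brain barrier and astrocytes. Hk2 encodes an inducible hexokinase that can bind to mitochondria, and Pfkfb3 the enzyme that makes fructose 2,6-bisphosphate, the activator of phosphofructokinase. Gapdh and Pkm encode glyceraldehyde 3-phosphate dehydrogenase and pyruvate kinase, steps of the common lower pathway. Ldha and Ldhb encode the subunits of lactate dehydrogenase, the first richer in tissues that make lactate and the second in tissues that use it.

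The promoters of the 4 genes that passed the test in spinal cord are shown because hypoxia-inducible factors act through a short core, ACGTG or GCGTG. Each is the 300 bases that RefSeq places around 1 gene start, 250 before it and 50 after, in build GRCr8, matched by symbol (7 of 7 genes found). Hk2 lies at chr4:116841226-116841525 on the minus strand, Pfkfb3 at chr17:71944683-71944982 on the plus strand, Gapdh at chr4:159652418-159652717 on the minus strand and Ldhb at chr4:177177359-177177658 on the minus strand. Capitals mark every ACGTG or GCGTG on either strand.
Hk2: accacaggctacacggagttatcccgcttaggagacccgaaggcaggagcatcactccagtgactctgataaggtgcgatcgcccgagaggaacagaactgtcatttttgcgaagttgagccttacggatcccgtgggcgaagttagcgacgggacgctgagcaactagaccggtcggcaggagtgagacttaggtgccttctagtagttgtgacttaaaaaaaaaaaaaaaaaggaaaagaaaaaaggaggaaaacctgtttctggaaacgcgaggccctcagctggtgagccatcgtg
Pfkfb3: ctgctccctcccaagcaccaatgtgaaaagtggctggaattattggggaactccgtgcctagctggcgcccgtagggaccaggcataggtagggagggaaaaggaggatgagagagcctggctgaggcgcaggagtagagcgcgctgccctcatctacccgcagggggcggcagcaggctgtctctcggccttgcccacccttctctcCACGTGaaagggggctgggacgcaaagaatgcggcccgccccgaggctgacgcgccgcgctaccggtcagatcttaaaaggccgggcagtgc
Gapdh: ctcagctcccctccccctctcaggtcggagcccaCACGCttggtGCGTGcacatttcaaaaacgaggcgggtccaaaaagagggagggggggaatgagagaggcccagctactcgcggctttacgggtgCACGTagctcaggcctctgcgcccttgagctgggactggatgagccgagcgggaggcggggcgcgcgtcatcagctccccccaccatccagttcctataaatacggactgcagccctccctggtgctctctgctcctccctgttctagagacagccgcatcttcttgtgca
Ldhb: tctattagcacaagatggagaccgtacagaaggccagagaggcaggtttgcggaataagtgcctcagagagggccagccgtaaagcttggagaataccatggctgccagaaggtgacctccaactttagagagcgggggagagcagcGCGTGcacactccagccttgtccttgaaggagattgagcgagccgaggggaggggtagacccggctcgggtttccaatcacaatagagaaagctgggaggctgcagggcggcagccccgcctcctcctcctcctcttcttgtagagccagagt

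Of these, Pfkfb3, which was higher in plus-marked spinal cord, holds the palindrome CACGTG, in which ACGTG reads on both strands and which is also the E-box of other factors. Hk2, which was higher as well, holds neither core in this window. Gapdh, which was lower, holds 1 ACGTG and 2 GCGTG, and Ldhb, also lower, 1 GCGTG. Among the other 3 genes, Slc2a1 holds 1 ACGTG and 3 GCGTG, and Pkm none. Ldha holds 3 of each when its 1 CACGTG is counted on both strands. In all, 5 of 7 promoters hold a core, where 41.6% of 33469 rat promoters of this length do. For ACGTG alone it is 4 of 7 against 19.3%, and for CACGTG 2 of 7, Pfkfb3 and Ldha, against 6.42%. The background promoters were not matched for base composition, so these shares are descriptions and test no excess. A core was present in promoters of genes that were higher and of genes that were lower.

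In spinal cord, the upstream enzymes Hk2 and Pfkfb3 were higher in plus-marked libraries, whereas Gapdh and Ldhb were lower. Hk2 moved most, to nearly 2-fold. The 4 genes called are 4 of 7, against a background of 13.5% of 17134 genes tested, or 2312. The 7 genes were chosen with earlier results of these data known. Shares set beside a background, here and below, are therefore descriptions and test no excess. With 1 library left out, 1 to 4 of the 7 were called and 1175 to 2114 of all genes. The members' count was 1 without plus-marked library 3 or minus-marked library 1, 2 or 3, where the counts over all genes were 1463, 1341, 1175 and 1398, and 2 without plus-marked library 4 (1953). The split was 2 higher (background 6.83%) and 2 lower (6.66%). The median log2 fold change of the 7 genes was -0.20, beside 0.01 over all genes tested, and their median size was 0.39, beside 0.24. Marks did not overlap for 5 of 7 genes, against 20.2% of all genes. Of these, 2 were higher in every plus-marked library (background 9.13%) and 3 lower (11.1%). Tests were edgeR's two-sided quasi-likelihood test, with p-values Benjamini-Hochberg adjusted over the whole table and called under 0.05; values are CPM, counts as a share of the library's total, after TMM scaling within the tissue.

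Hk2 stood at 41.4, 44.1, 41.2 and 39.3 CPM in plus-marked spinal cord libraries 1 to 4 and at 19.8, 21.8, 24.8 and 17.9 CPM in minus-marked ones. The lowest plus-marked library was far above the highest minus-marked one, and the plus-marked libraries were close to each other (41.5 ± 1.94 against 21.1 ± 2.95 CPM, SD, n = 4). On the log2 scale it rose by 0.98 (SE 0.11, edgeR adjusted p = 0.000448), or 1.97-fold, larger than that of 95.1% of genes tested. Hk2 kept its call in 8 of 8 fits with 1 library left out, with log2 fold changes from 0.90 to 1.05.

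Pfkfb3 stood at 71.9, 71.9, 80.1 and 61.8 CPM in the plus-marked and at 57.3, 54.7, 59.9 and 46.1 CPM in the minus-marked spinal cord libraries. The groups did not overlap, but plus-marked library 4 and minus-marked library 3 were nearly level. Pfkfb3 rose by 0.39 log2 units (SE 0.11, edgeR adjusted p = 0.0399), or 1.31-fold. This call rested on single libraries: it held in 1 of 8 fits with 1 library left out, that without plus-marked library 4 (adjusted p = 0.0296), and reached an adjusted p of 0.113 without plus-marked library 3. Leaving out plus-marked library 1 or 2 gave adjusted p-values of 0.0735 and 0.0582. Leaving out each minus-marked library, in the order 1 to 4, gave 0.0751, 0.0942, 0.0584 and 0.0828.

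Gapdh, often used as a reference gene, stood at 698, 336, 471 and 550 CPM in the plus-marked spinal cord libraries and at 800.7, 866, 820.5 and 786 CPM in the minus-marked ones. All plus-marked libraries were lower, and they were spread much more widely, with a coefficient of variation of 29.5% against 4.24%. Gapdh was lower by 1.59-fold (edgeR log2 fold change -0.67, SE 0.18, adjusted p = 0.0305). Plus-marked library 2, the shallowest, was also the lowest for Gapdh. Among spinal cord libraries it was the lowest for Slc2a1, Pkm and Ldha too, and the highest for Hk2. Its share of counts in the 7 genes together, 0.129%, was the lowest of all libraries. Without plus-marked library 2 the log2 fold change of Gapdh was -0.52 (edgeR adjusted p = 0.0349). Without plus-marked library 1, the highest of the mark for Gapdh, it was -0.87 (edgeR adjusted p = 0.00761). The call was lost without plus-marked library 3 or 4 (adjusted p = 0.0803 and 0.0516) and without minus-marked library 1, 2 or 3 (0.0654, 0.0779 and 0.0607). Gapdh has many processed copies in mammalian genomes, so reads may have been assigned in ways the counts do not show.

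Ldhb stood at 244, 226, 207 and 216 CPM in the plus-marked and at 286, 280, 324 and 273 CPM in the minus-marked spinal cord libraries. Again the groups were apart, with similar spread in each. Ldhb was lower by 1.31-fold (edgeR log2 fold change -0.38, SE 0.10, adjusted p = 0.0276). The call held when plus-marked library 1, plus-marked library 2 or minus-marked library 4 was left out, and was lost without each of the other 5 libraries. Leaving out plus-marked library 3 or 4 gave adjusted p-values of 0.0614 and 0.0603; for minus-marked library 1, 2 or 3 they were 0.0664, 0.0571 and 0.0749.

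Pkm, Ldha and Slc2a1 did not pass the test in spinal cord. Pkm stood at 576, 426, 510 and 545 CPM in plus-marked and 665, 687, 747 and 588 CPM in minus-marked libraries, with no overlap. Its log2 fold change of -0.39 had an edgeR adjusted p of 0.0605, which became 0.0494 and 0.0482 without plus-marked library 1 and minus-marked library 4, and 0.0175 by DESeq2. Thus Pkm had values close to those of Ldhb on the other side of the threshold. Ldha stood at 135, 89.3, 113 and 134 CPM against 125, 136, 109 and 135 CPM, so the groups overlapped almost fully apart from plus-marked library 2. Its log2 fold change of -0.10 had a 95% interval of -0.39 to 0.20 (adjusted p = 0.661). Slc2a1 stood at 162.3, 127.8, 137.4 and 169.3 CPM against 181.6, 160.5, 167.1 and 175.2 CPM, with plus-marked libraries 2 and 3 below the rest. The 95% interval of its log2 fold change was -0.44 to 0.04 (adjusted p = 0.251), so a log2 rise above 0.04 lies outside it.

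**Figure D1:**
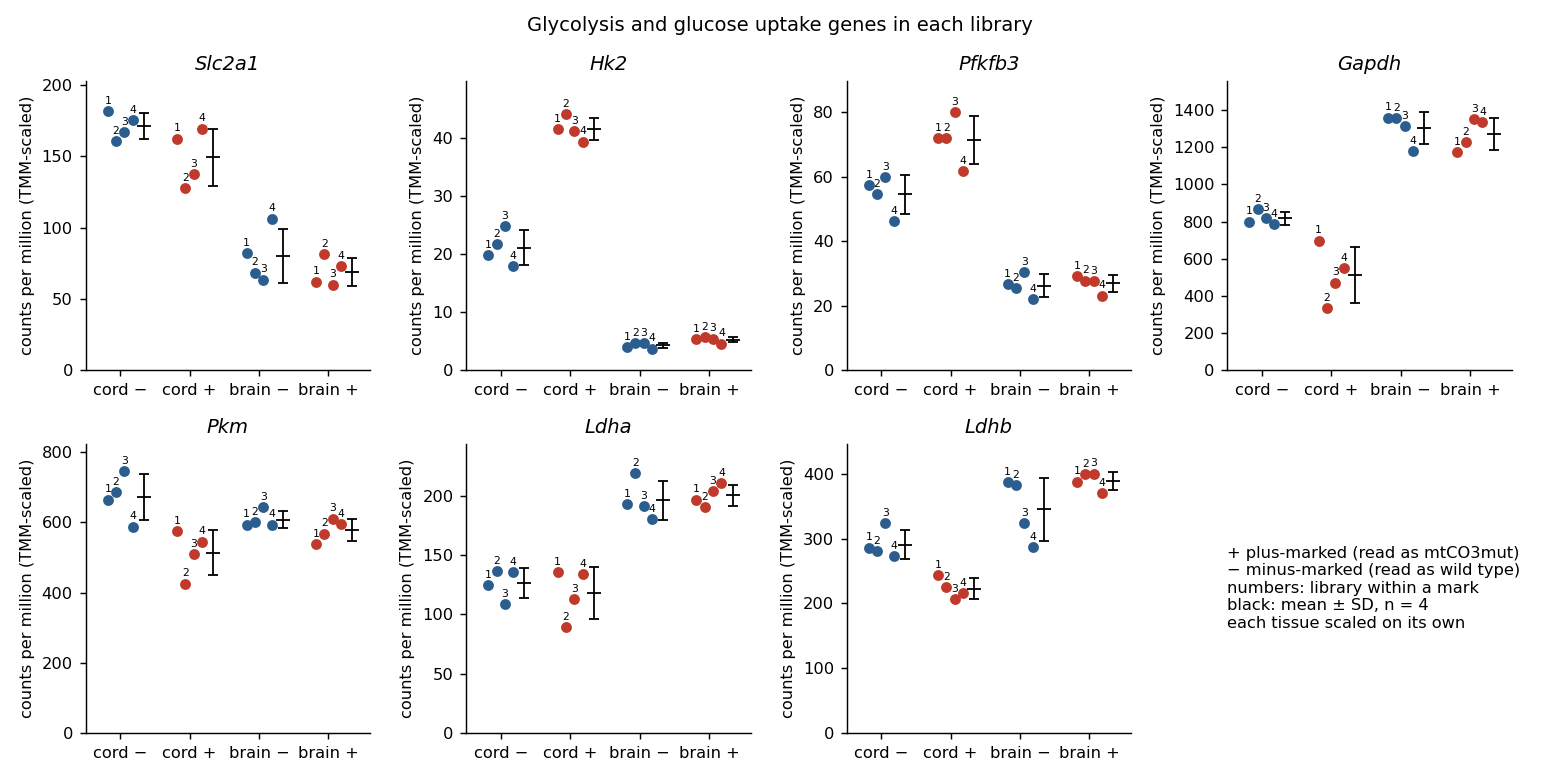
CPM (y axis, TMM-scaled within each tissue, from 0) of the 7 genes in each library, by tissue and mark; points are libraries numbered within their mark, black bars the mean ± SD of 4. Plus-marked spinal cord libraries of Hk2 (39.3 to 44.1) all lie above the minus-marked ones (17.9 to 24.8), those of Gapdh (336 to 698) all lie below (786 to 866), and in brain the marks overlap for every gene.

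The lane-like codes in the column names split the spinal cord libraries unevenly. Code L24 holds 3 plus-marked libraries and 1 minus-marked one; the other 4 codes hold 1 library each, so code and mark cannot be told apart among them. Within L24 the log2 fold changes were 0.71 for Hk2, 0.25 for Pfkfb3, -0.52 for Gapdh and -0.55 for Ldhb. Among the other 4 libraries they were 1.13 for Hk2, 0.43 for Pfkfb3, -1.3 for Gapdh and -0.33 for Ldhb. Each subset has a mark with a single library, minus-marked library 3 in L24 and plus-marked library 2 in the other. That plus-marked library was the shallowest and the lowest for Gapdh. A single library gives no spread of its own, so only effect sizes are given for the subsets. In a fit with L24 against all other codes pooled as a term, Hk2, Gapdh and Ldhb kept their calls and Pfkfb3 did not (log2 fold change 0.35, adjusted p = 0.081), while Pkm passed (-0.53, adjusted p = 0.0173). The part of the codes in these results was not tested further.

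**Figure D2:**
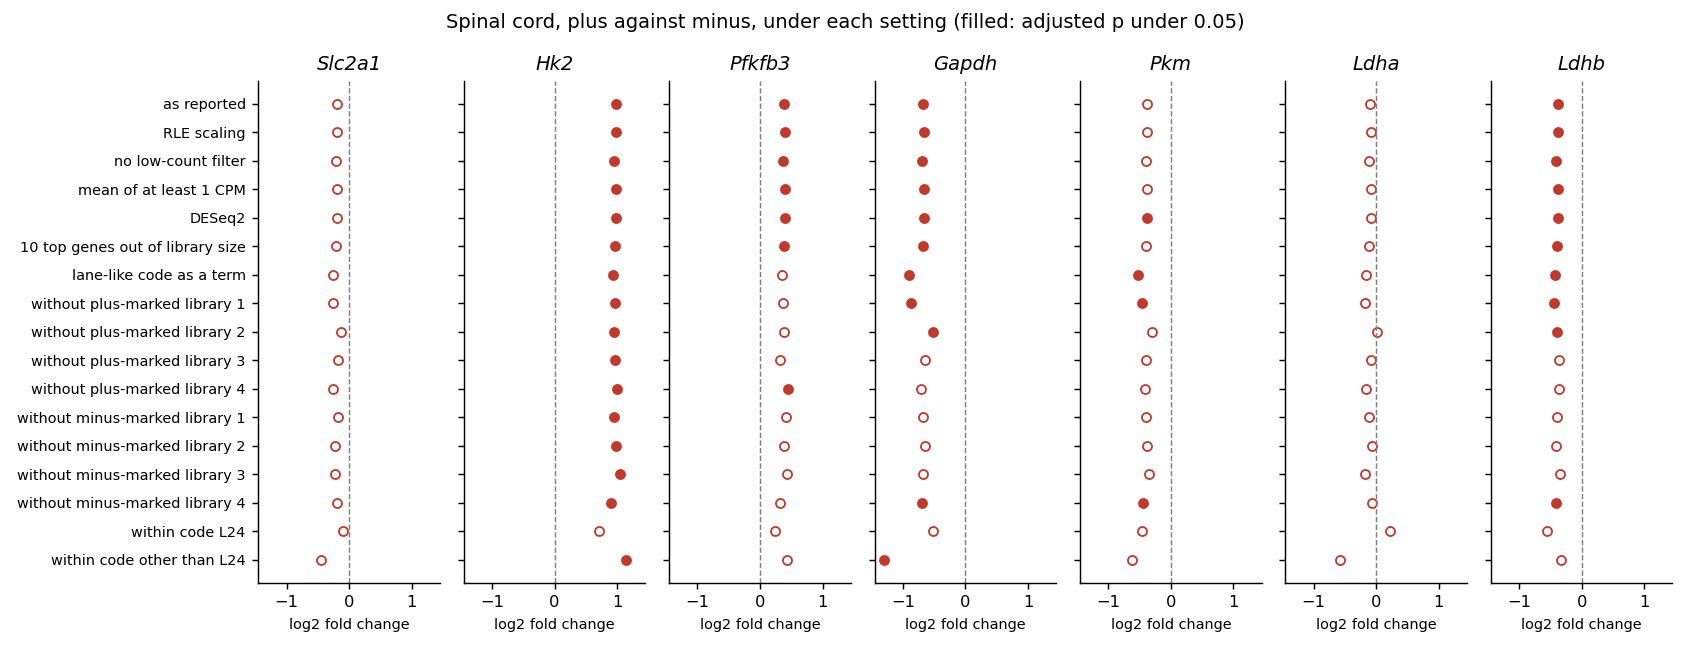
Log2 fold change of each gene in spinal cord, plus against minus (x axis), under each processing setting (y axis); filled points have an adjusted p under 0.05. Outside the code subsets Hk2 is filled in every setting, Pfkfb3 loses its filling in most fits with 1 library left out, and Ldha crosses 0. In each code subset a mark has a single library, so its filling is not read.

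Ratios of 2 of these genes within a library do not depend on scaling or depth. In spinal cord the log2 ratio of Hk2 to Gapdh counts was -4.07, -2.93, -3.52 and -3.81 in the plus-marked and -5.33, -5.31, -5.05 and -5.45 in the minus-marked libraries. The marks were far apart, with a difference in means of 1.71 against the 0.98 that Hk2 shows on the CPM scale, so measured against Gapdh the rise of Hk2 would look larger. The log2 ratio of Hk2 to Ldhb was the tightest of those shown, at -2.42 ± 0.11 against -3.79 ± 0.12 (SD, n = 4), a difference of 1.37 that stayed between 1.32 and 1.41 with any 1 library left out. Pfkfb3 to Pkm differed by 0.78, again with every plus-marked library above every minus-marked one. For all 3, p was 0.0286 by a two-sided exact permutation test, which cannot go lower with 4 libraries a mark, and 0.1 after adjustment over the 42 ratios computed in both tissues. Each of the 3 sets a gene higher in every plus-marked library over one lower in every plus-marked library. The separation and this p-value therefore follow from the CPM values above and add no separate evidence.

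The log2 ratio of Ldha to Ldhb, the genes of the 2 lactate dehydrogenase subunits, was -0.85, -1.34, -0.88 and -0.69 in plus-marked and -1.20, -1.04, -1.58 and -1.01 in minus-marked spinal cord libraries. The groups overlapped through plus-marked library 2. The difference was 0.27 (exact permutation test, two-sided, p = 0.171, adjusted 0.256), so a difference in this ratio was not detected with 4 libraries a mark, although Ldhb passed the test on its own. In brain the same ratio was -0.96 ± 0.11 in plus-marked and -0.81 ± 0.14 in minus-marked libraries (SD, n = 4), a difference of -0.15 (exact permutation p = 0.171, 0.256 adjusted). Pkm to Ldhb hardly differed in spinal cord, with a difference in log2 ratio of -0.01 (exact permutation p = 1, 1 adjusted).

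**Figure D3:**
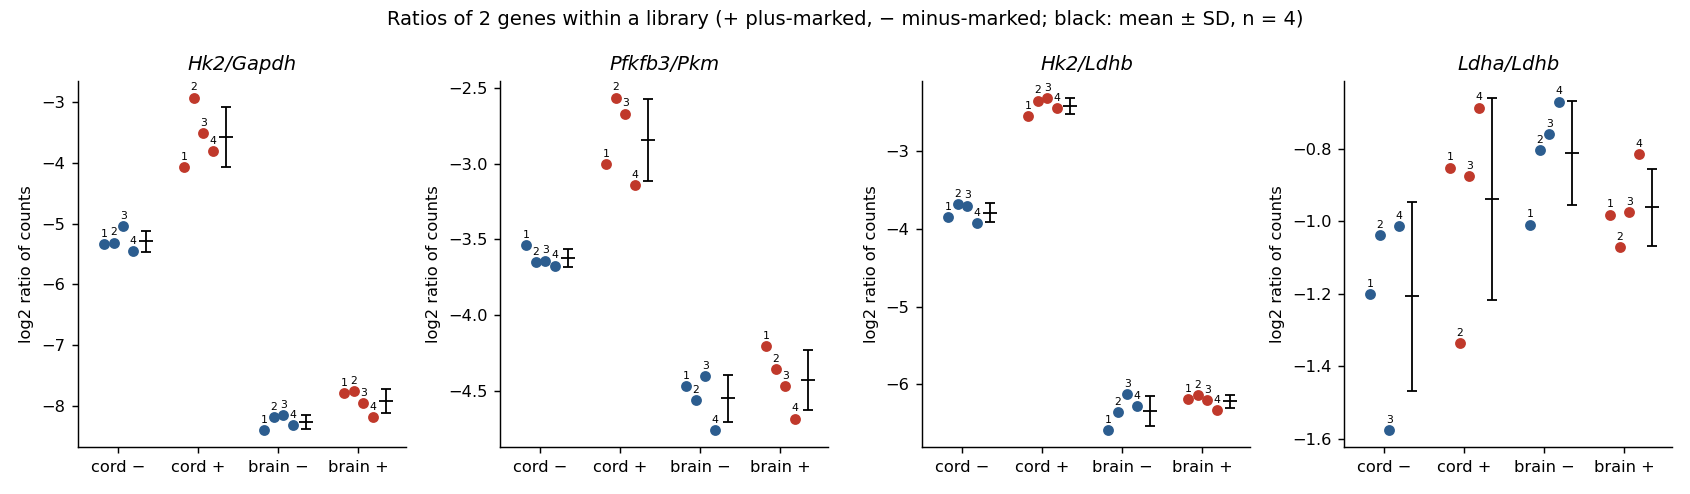
Log2 ratio of the counts of 2 genes within each library (y axis, not starting at 0) by tissue and mark; points are libraries numbered within their mark, black bars the mean ± SD of 4. The spinal cord marks are apart for Hk2/Gapdh, Pfkfb3/Pkm and Hk2/Ldhb and overlap for Ldha/Ldhb, and the brain marks overlap for all 4 ratios.

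In brain, 0 of the 7 genes passed the edgeR test, against a background of 0.243% of 16860 genes tested (0.19% higher, 0.0534% lower). None of the 7 had an unadjusted p under 0.05 either, and DESeq2 called 0 of them. That background of 41 genes was itself unsteady: it was 210 by DESeq2, 74 with no low-count filter, and 8 to 60 with 1 library left out. The lower counts were 8, 10 and 13 without plus-marked libraries 1, 2 and 3 in turn, and 24, 22 and 15 without minus-marked libraries 1, 3 and 4. Marks overlapped for all 7 genes, where they do not overlap for 4.95% of genes tested (2.67% with plus higher, 2.28% with plus lower). The median log2 fold change of the 7 genes was 0.03, beside 0.00 over all genes tested, and their median size was 0.07, beside 0.11.

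Hk2 came closest in brain, where it was low: 5.3, 5.7, 5.4 and 4.6 CPM in plus-marked libraries 1 to 4 against 4.0, 4.7, 4.6 and 3.7 CPM in minus-marked ones. Plus-marked library 4 lay inside the minus-marked range and the other 3 above it. The log2 fold change was 0.30 (95% interval -0.0022 to 0.61, edgeR adjusted p = 0.547). Ldhb stood at 388, 400, 401 and 371 CPM against 388, 382, 324 and 287 CPM, with minus-marked libraries 3 and 4 low. Its log2 fold change of 0.18 had a 95% interval of -0.04 to 0.39 (adjusted p = 0.636). The estimate was 0.0916 without minus-marked library 4 and 0.041 within code L3.

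Gapdh, which fell in spinal cord, stood at 1173, 1226, 1350 and 1334 CPM in plus-marked and 1360, 1358, 1316 and 1178 CPM in minus-marked brain libraries. The ranges nearly coincide, and the 95% interval of the log2 fold change was -0.23 to 0.15. The spinal cord estimate of -0.67 lies outside it and has an interval of its own, -1.07 to -0.28. The test of the difference between tissues did not pass for Gapdh (edgeR adjusted p = 0.0963). For Pkm the brain interval was -0.24 to 0.10, for Ldha -0.14 to 0.21, for Pfkfb3 -0.19 to 0.27 and for Slc2a1 -0.54 to 0.12. Slc2a1 ran from 63.5 to 106 CPM in minus-marked brain, highest in library 4, whose TMM factor was 0.803; before TMM scaling library 1 was highest, at 88.6 against 85.3 CPM. Library 4 also had the lowest share of its counts in the 7 genes together, 0.190% against 0.276% to 0.286% in the other 3 and 0.234% to 0.272% in the plus-marked libraries.

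Hk2 and Ldhb responded to the mark differently in the 2 tissues by the interaction term of a joint edgeR fit of all 16 libraries, 2 of 7 genes against a background of 2.79% of 17823. That is 498 genes, and it was 1129 by DESeq2 and 215 to 647 with 1 library left out. The Hk2 effect was more positive in spinal cord by 0.67 log2 units (SE 0.17, adjusted p = 0.0388; background of higher calls 1.03%). For Ldhb it was more negative by a difference of -0.57 (SE 0.14, adjusted p = 0.036; lower calls 1.77%). Gapdh showed a difference of similar size, -0.64, with a larger error (SE 0.21, adjusted p = 0.0963); it passed by DESeq2 (-0.61, adjusted p = 0.0467) and with the codes as terms (-0.86, adjusted p = 0.0376). The intervals of Pfkfb3 (0.01 to 0.68) and Pkm (-0.61 to -0.03) lay on 1 side of 0 before adjustment, with adjusted p-values of 0.248 and 0.214. Slc2a1 and Ldha differed by 0.01 (95% interval -0.40 to 0.41) and -0.14 (-0.48 to 0.20).

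Both interaction calls were near the threshold. With 1 library left out, Hk2 passed in 4 of 16 fits (without spinal cord plus-marked library 1 or 4, spinal cord minus-marked library 3 or brain minus-marked library 4), with differences of 0.60 to 0.75 and adjusted p-values of 0.0271 to 0.0846. Ldhb passed in 6 of 16 (leaving out 1, 2 or 4 of the plus-marked spinal cord libraries, spinal cord minus-marked library 4 or brain minus-marked library 1 or 2), with differences of -0.63 to -0.49 and adjusted p-values of 0.0243 to 0.0734. Gapdh passed too without spinal cord plus-marked library 1 (-0.84, adjusted p = 0.015). No gene passed without spinal cord plus-marked library 3 or minus-marked library 1 or 2, without any 1 of the brain plus-marked libraries, or without brain minus-marked library 3.

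**Figure D4:**
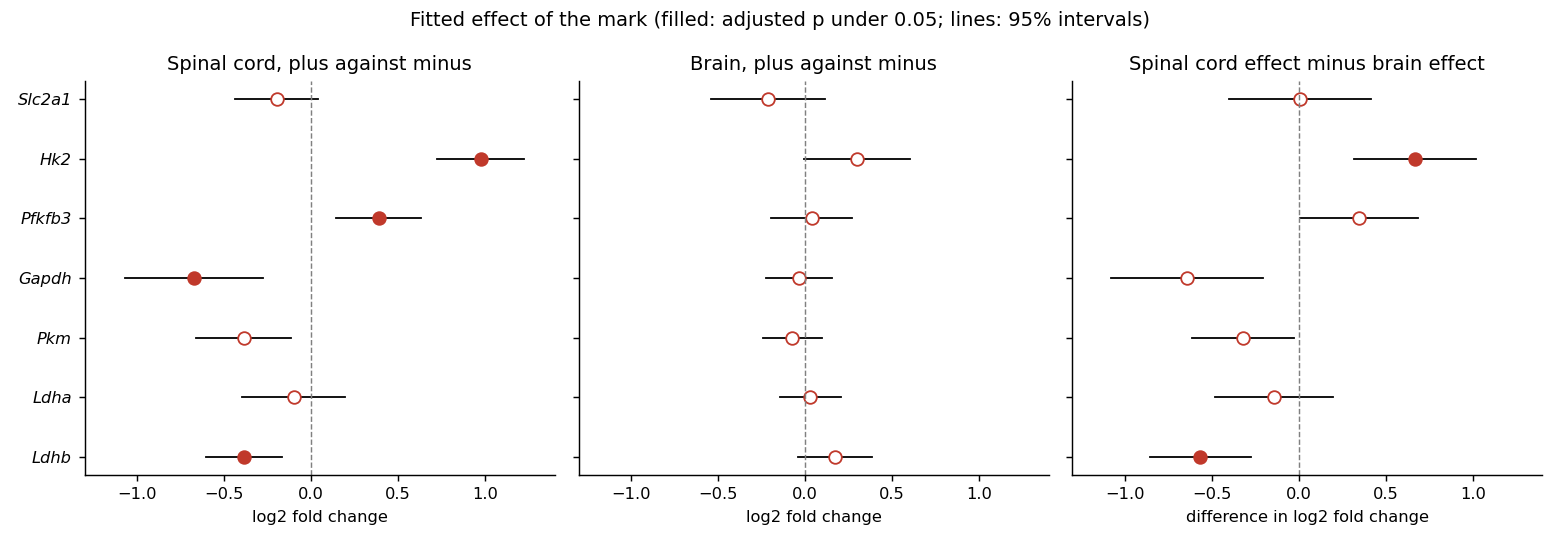
Fitted log2 fold change of plus against minus in spinal cord and brain, and the difference between these effects (x axes), for each gene (y axis); points are edgeR estimates, filled where the adjusted p is under 0.05, and lines are 95% intervals. The 4 called genes are filled in spinal cord, 0 in brain, and Hk2 (0.67) and Ldhb (-0.57) in the difference.

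Minus-marked spinal cord and brain differed in all 7 genes, in a joint fit where 70.7% of all genes did and where tissue and table cannot be told apart. Libraries of the same number were not paired in it, and with the number as a block all 7 were again called. The regulated upstream genes were higher in spinal cord: Hk2 by 3.69-fold, Slc2a1 by 1.60-fold and Pfkfb3 by 1.56-fold (3 of 7; background of higher calls 36.7%). The lower pathway and lactate dehydrogenase genes were lower in spinal cord: Gapdh by 2.13-fold, Ldha by 2.07-fold, Ldhb by 1.59-fold and Pkm by 1.21-fold (4 of 7; background 34%). Adjusted p-values ranged from 2.99e-11 for Hk2 to 0.0179 for Pkm (edgeR). Pkm missed the threshold without spinal cord minus-marked library 4 (0.0701) or brain minus-marked library 3 (0.0515).

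With both tissues on 1 scale, the 4 groups fell in this order. Hk2 was highest in plus-marked spinal cord (35.7 ± 1.88 CPM, SD, n = 4), then in minus-marked spinal cord (18.3 ± 2.40), plus-marked brain (6.09 ± 0.55) and minus-marked brain (4.93 ± 0.56), and only the 2 brain groups overlapped. The order of Pfkfb3 was the same, at 61.5 ± 7.196, 47.2 ± 4.93, 31.1 ± 3.04 and 30.3 ± 4.16 CPM, again with overlap in brain alone. For both genes, plus-marked spinal cord was farther from brain than minus-marked spinal cord was.

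Gapdh ran the other way, from 1509 ± 100 CPM in minus-marked and 1470 ± 98.9 CPM in plus-marked brain, which overlapped, to 709 ± 28.6 CPM in minus-marked and 442 ± 132 CPM in plus-marked spinal cord. Ldhb stood at 451 ± 16.6 and 400 ± 55.8 CPM in plus- and minus-marked brain, which overlapped, and at 252 ± 17.5 and 192 ± 14.7 CPM in minus- and plus-marked spinal cord. Pkm followed the same order as Gapdh, at 704 ± 29.8, 669 ± 37.4, 582 ± 52.4 and 443 ± 56.6 CPM, with overlap between neighbours except the 2 spinal cord groups. Ldha overlapped within each tissue, at 232 ± 10.2 and 227 ± 18.9 CPM in plus- and minus-marked brain and 110 ± 11.9 and 101 ± 18.4 CPM in minus- and plus-marked spinal cord. Slc2a1 was highest in minus-marked spinal cord, at 148 ± 8.75 CPM, followed by plus-marked spinal cord at 128 ± 16.3, minus-marked brain at 92.7 ± 22.1 and plus-marked brain at 79.9 ± 11.4, each overlapping the next. Plus-marked spinal cord stood at an end of the order for every gene but Slc2a1.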

How the data were processed

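The authors deposited raw counts per Ensembl gene in 1 table per tissue, that of spinal cord being called lumbar. Per the labels' protocols, libraries were rRNA-depleted and strand-marked, and build mRatBN7.2, featureCounts, cutadapt and DESeq2 appear in the submitters' processing notes. For aligner and strand setting, the sources used here give no name. Columns were grouped by their plus or minus mark, and libraries numbered 1 to 4 in the order of the number in the column name. The 12 early-stage columns were tied to no sample and left out.

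Counts were fitted over all genes with edgeR 4.0.16 (limma 3.58.1, R 4.3.3) after filterByExpr and TMM scaling, and DESeq2 1.42.0 was an alternative, beside RLE scaling, other filters, library sizes without the 10 most abundant genes, lane-like codes, a block and leaving out each library. Only the edgeR fits with their main settings were first tested on simulated counts. Standard errors came from the F statistic. A prior count of 2 entered the log2 CPM. Counting error forms part of the spread between libraries, most of all for Hk2 in brain, which had as few as 144 counts in a library.

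Members and lists were chosen with earlier results of these data known. Named were all 7 genes, plus the single gene with the highest Pearson r with any of them. The 8 pathway lists (85 genes) and the cell type markers went unused: the RefSeq gene table has an Ensembl identifier for 0 of 47357 genes.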

Additional observations from a re-analysis of the deposited data

Results flagged for a closer look

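The effect of the mark on Hk2 was more positive in spinal cord than in brain by 0.67 log2 units in the test of the difference (edgeR adjusted p = 0.0388). For Ldhb the same test gave -0.57 (edgeR adjusted p = 0.036), with log2 fold changes of -0.38 in spinal cord and 0.18 in brain. Pkm in minus-marked brain library 3 stood apart from its group at 643.8 CPM, where the other 3 libraries lay between 593.6 and 600.6 CPM. On the log2 CPM scale the gap was 0.856 of the range. Before TMM scaling library 4 was the one apart, at 477 CPM against 641, 638 and 689.6 CPM in libraries 1 to 3. It was the only such value among the 28 groups of 4 libraries examined, where chance gives about 1 in 20.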

How the results depend on the processing

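In spinal cord, 4 of the 7 genes were called, and 2312 of all genes tested. With 1 library left out these counts were 1 to 4 and 1175 to 2114. For the difference between tissues, 2 of the 7 were called, and 498 of all genes. With no low-count filter these counts were 1 and 433, and with 1 library left out 0 to 3 and 215 to 647. Brain gave 0 genes under every alternative run, and minus-marked spinal cord against brain 6 to 7. Outside the code subsets, adjusted p in spinal cord was lowest by DESeq2 and highest by edgeR with 1 library left out. It ran from 1.9e-12 to 0.00284 for Hk2, 0.00307 to 0.0803 for Gapdh, 0.00279 to 0.0749 for Ldhb and 0.0119 to 0.113 for Pfkfb3. Over all 16 alternatives, code subsets included, these 4 kept their direction, as did Pkm and Slc2a1. Signs turned only for genes that were not called. In spinal cord Ldha reached 0.22 within code L24 and ran from -0.1849 to 0.0094 with 1 library left out. In brain Ldha was -0.0648 within code L3, and Pfkfb3 and Gapdh were -0.19 and 0.093 within L1. Code L1 holds a single plus-marked brain library, 4, beside minus-marked libraries 3 and 4, so its estimates rest on that plus-marked library. With 1 library left out, Ldha, Pfkfb3 and Gapdh in brain ran from -0.0094 to 0.0911, -0.0411 to 0.1227 and -0.0862 to 0.0009. The Slc2a1 difference between tissues was -0.0102 with no filter, -0.0932 with codes as terms (L24 in spinal cord and L3 in brain, each against the others pooled), -0.0174 with a replicate block and -0.1672 to 0.0974 with 1 library left out. The causes were not tested. With the number in the column names as a replicate block across tissues, 2 genes were again called (Hk2 0.67, adjusted p = 0.0214; Ldhb -0.58, adjusted p = 0.0344). Same-numbered libraries deviated together in 6 of 8 pairs (correlation over 0.1; range -0.075 to 0.251), short of all 8, and no label ties a number to an animal, so the reported fits have no block. In 7 of 8 pairs a spinal cord library correlated best with the brain library of its own number, among the brain libraries of its mark. The same numbers stand under the same marks in both tissues. The tissues may therefore share animals, a pairing that the reported joint fits ignore. The block moved the genes called for the difference from 498 to 696. Within a tissue no number occurs under both marks, so no block could be fitted there. The comparisons with early-stage spinal cord were not run. Precision is limited by 4 libraries per group.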

Other observations

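Some of the 7 genes varied together within the groups. Over the 16 libraries, after the mean of each group was taken off the log2 CPM, Gapdh went with Ldha (Pearson r = 0.819, Spearman rho = 0.762) and with Pkm (r = 0.799, rho = 0.732). Without the 2 libraries farthest from the median these r were 0.597 and 0.558. Hk2 went with Pfkfb3 (r = 0.739, rho = 0.532, and r = 0.663 without 2 libraries), and neither followed Gapdh (r = -0.056 for Hk2 and -0.043 for Pfkfb3). Hk2 also went with Ldhb (r = 0.56, rho = 0.529, and r = 0.441 without 2 libraries). Slc2a1 ran against Pfkfb3 (r = -0.608, and -0.354 without 2 libraries) and Hk2 (r = -0.554, and -0.367 without 2 libraries). The sign of the Slc2a1 to Gapdh correlation was not shared by the tissues, at 0.751 over 8 spinal cord and -0.513 over 8 brain libraries. Libraries share their depth and scaling across genes, so these values are descriptions. Each of the 7 was also set against 14548 other genes tested in both tissues with a mean log2 CPM of at least 0. The pair of highest Pearson r was Gapdh with ENSRNOG00000034254, which has no name in the tables used here (r = 0.946, rho = 0.765, and r = 0.61 without 2 libraries). Pairs of Hk2 (rho = 0.915) and of Pfkfb3 (r = 0.898 without 2 libraries) stood higher on those other measures.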
